A study of Mus musculus with 12 samples.

Results

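The broad H3K27me3 domains of immortalized mouse embryo fibroblasts (iMEF cells) are the sites on chromosomes 1 to 19 that spanned at least 10 kb in the deposited list of H3K27me3 sites. They were chosen by their width alone. The rule found 2350 domains among the 96090 sites on these chromosomes, which is 2.45% (95% Wilson interval 2.35 to 2.55%), and among 101389 sites in the whole list. The domains covered 42.4 Mb of the 167.4 Mb held by all sites on these chromosomes, or 25.4% of the marked bases and 1.77% of the known bases of the 19 chromosomes.

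The chromatin immunoprecipitation sequencing (ChIP-seq) material behind the list came from cells whose floxed Ash2l alleles had lost exon 4 through a Cre-ER transgene that can be switched on. All groups lived on a lentiviral human ASH2L with an N-terminal FKBP12F36V tag, which the compound dTAG sends to degradation, and the study names NG3, which is 1 cell clone, as the cells of this experiment. The COMPASS/KMT2 enzymes, which methylate histone H3 at lysine 4, need ASH2L as a core subunit. There were 8 H3K27me3 libraries, with 2 each from untreated cells and from cells given dTAG for 16 h, 24 h and 48 h. A further 4 libraries held input chromatin, 2 of them from untreated cells and 2 from cells at 48 h of dTAG. The list pools all samples and gives each site a position only, so no library has a value in it and no time point could be compared with another from it. Whether a given domain was present in untreated cells, or reached 10 kb there, cannot be told from the list. The depth each library reached is not in the list, and the study states only a planned minimum of reads and a scaling of libraries to the lowest coverage. A separate list of sites that the study called as changed at each time point was not used here. Every value below therefore describes the pooled list, has no replicate error and carries no test. The intervals of shares are 95% Wilson intervals that cover counting error only and treat domains as independent, which neighbours are not.

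Trimethylation of lysine 27 of histone H3 is placed by Polycomb repressive complex PRC2 and read by PRC1, and it marks genes that are kept silent in a given cell type. In vertebrates the mark is known to be recruited to CpG islands, short stretches dense in the dinucleotide CpG, and to spread from there over neighbouring nucleosomes. Developmental transcription factor genes of lineages other than that of the cell are its best known targets, and over such genes it can form continuous blanket-like domains.

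To show what the sequence inside such domains can look like, the 200-base window with the most CpGs was read from 5 domains, outside annotated exons and masked repeats. The first 2 are the widest domains that hold a single protein-coding gene from the transcription factor lists, the next 2 are the widest domains with 1 protein-coding gene and its 5′ end but no CpG island, and the last is the widest domain with no start of any gene. Each is the plus strand of GRCm38.p6 from RefSeq, 5′ to 3′, and capitals mark the CpGs.
Pax2 domain: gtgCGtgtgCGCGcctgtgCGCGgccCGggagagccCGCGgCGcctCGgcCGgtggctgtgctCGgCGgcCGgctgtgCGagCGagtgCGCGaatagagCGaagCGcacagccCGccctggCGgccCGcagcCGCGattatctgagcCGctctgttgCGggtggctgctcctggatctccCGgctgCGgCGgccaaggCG
Lmx1b domain: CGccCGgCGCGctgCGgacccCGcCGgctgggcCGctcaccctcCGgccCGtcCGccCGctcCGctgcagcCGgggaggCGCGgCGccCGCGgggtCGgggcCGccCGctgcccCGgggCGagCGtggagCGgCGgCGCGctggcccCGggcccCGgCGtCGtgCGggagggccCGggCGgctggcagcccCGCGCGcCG
Kcna5 domain: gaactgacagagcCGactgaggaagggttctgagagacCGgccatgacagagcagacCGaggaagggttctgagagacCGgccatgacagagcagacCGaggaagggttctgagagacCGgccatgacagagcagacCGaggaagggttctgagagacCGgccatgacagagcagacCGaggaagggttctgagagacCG
Tmem255b domain: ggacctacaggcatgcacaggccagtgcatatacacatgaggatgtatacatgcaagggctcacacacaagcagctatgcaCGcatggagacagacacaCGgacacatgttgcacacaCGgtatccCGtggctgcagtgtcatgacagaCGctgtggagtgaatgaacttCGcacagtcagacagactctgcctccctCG
Domain near Htatip2: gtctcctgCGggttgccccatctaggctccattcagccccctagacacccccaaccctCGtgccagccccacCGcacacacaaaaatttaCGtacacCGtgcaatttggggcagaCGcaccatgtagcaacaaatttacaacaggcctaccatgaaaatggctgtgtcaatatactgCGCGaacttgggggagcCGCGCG

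The Pax2 window, chr19:44746666-44746865, held 31 CpGs and lay 9.28 kb upstream of the gene's 5′ end. The Lmx1b window, chr2:33640603-33640802, held 40 CpGs and was centred 0.191 kb upstream of that gene, which reads on the minus strand. Both windows lie in CpG islands, and as many CpGs as theirs were found in 0.0311% and 0.00183% of all 200-base windows of chromosomes 1 to 19. The Kcna5 window, chr6:126539177-126539376, held 10 CpGs in a short unit repeated in tandem, and the Tmem255b window, chr8:13414784-13414983, held 7. The window of the domain near Htatip2, chr7:49699979-49700178, held 11 CpGs. In the domains without an island, the densest windows were thus matched or exceeded by 0.812% to 2.65% of all windows. Each printed window was picked as the densest of a wide domain, so a low share follows in part from the choice. The windows of the chromosomes also include exons and repeats.

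Domain width ran from 10004 bp to 228257 bp with a median of 14180.5 bp, and the lower and upper quartiles were 11564 bp and 20124 bp. Of the domains, 1753 spanned 10 to 20 kb, 549 spanned 20 to 50 kb and 48 spanned 50 kb or more, of which 4 exceeded 100 kb. The threshold cuts through a continuous range of widths. The 3 domains just inside it were chr6:119160194-119170197 (10004 bp, 5056 bp from a start of Dcp1b), chr12:16661647-16671656 (10010 bp, 3384 bp from Greb1) and chr2:163197071-163207081 (10011 bp, holding a start of Tox2). The 3 sites just outside were chr9:31101453-31111449 (9997 bp, holding a start of St14), chr7:67768281-67778278 (9998 bp, 8539 bp from Synm) and chr12:99962998-99972996 (9999 bp, holding a start of Kcnk13).

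A transcription start site (TSS) of a protein-coding gene, counting every annotated transcript of GENCODE M21, lay inside 1137 domains, or 48.4% (46.4 to 50.4%). Narrower sites held one in 4.44% of cases, but a wide site holds a TSS more often by its width alone. Per covered megabase, protein-coding gene 5′ ends numbered 24.3 in the domains, 22.2 in the narrower sites and 8.68 over chromosomes 1 to 19, so per base the domains and the narrower sites were close to each other. Of the domains, 1009 held starts of 1 protein-coding gene, 102 held those of 2 genes and 26 held 3 or more. A further 247 domains held only starts of genes that are not protein-coding, and 966 held no start at all. Some of these starts are internal promoters: in the domain of 50566 bp that ends inside Wnt7a, a Wnt ligand of limb and brain, only the starts of shorter transcripts lay inside, while the gene's 5′ end fell in another domain.

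Counted by genes, 1176 of 20807 protein-coding genes had a TSS in a domain, which is 5.65% (5.35 to 5.97%). This share is the background for the gene lists below. A further 3297 genes (15.8%) had a TSS only in a narrower site, and 16334 genes (78.5%) in none. The median gene with a TSS in a domain had 72.1% of its body covered, and 402 genes lay wholly inside 1 domain, with a median length of 5.17 kb against 17.6 kb for all protein-coding genes. Of other gene classes, 438 of 9426 long non-coding RNA genes had a TSS in a domain (4.65%, 4.24 to 5.09%), as did 63 of 2054 miRNA genes (3.07%) and 134 of 11594 pseudogenes (1.16%).

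**Figure D1:**
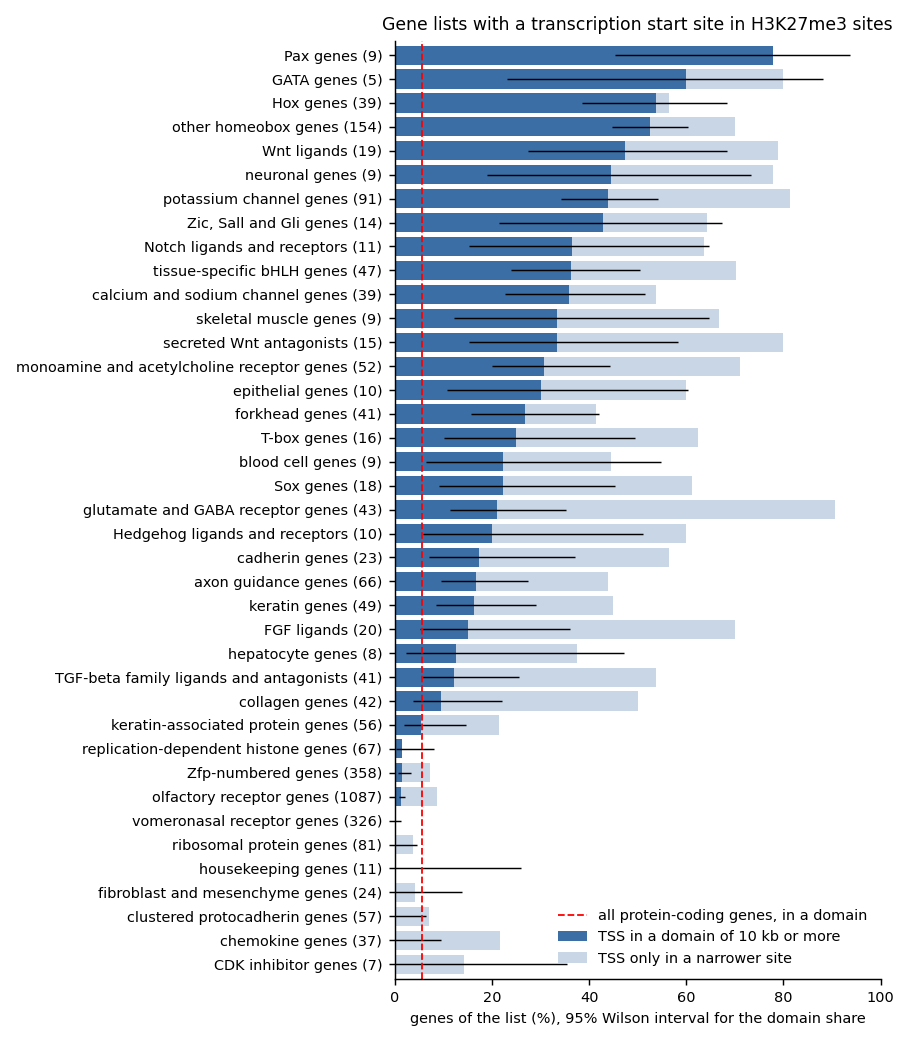
Share of each gene list (%, horizontal axis, number of genes in parentheses) with a TSS in a domain (dark bars, lines are 95% Wilson intervals) or only in a narrower site (light bars). The dashed line is the 5.65% of all protein-coding genes with a TSS in a domain, and the transcription factor, Wnt and potassium channel lists lie to its right while ribosomal protein, housekeeping and fibroblast genes have no dark bar. The intervals of the housekeeping and fibroblast genes include the dashed line.

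The list holds no expression, so the cell type label could not be checked beyond where the mark lay. None of 24 fibroblast and mesenchyme genes had a TSS in a domain (0 to 13.8%), among them Col1a1, Vim, Prrx1 and Twist1, and only Pdgfra, a growth factor receptor of mesenchymal cells, had one in a narrower site. None of 11 housekeeping genes had a TSS in a site of either kind. With 5.65% of all protein-coding genes in domains, counts of 0 in lists this short are near the background and do not show the cell type. Of the lists that mark other lineages, 4 of 9 neuronal genes (44.4%, 18.9 to 73.3%) had a TSS in a domain, 3 of 9 skeletal muscle genes (33.3%, 12.1 to 64.6%), 3 of 10 epithelial genes (30%, 10.8 to 60.3%), 2 of 9 blood cell genes (22.2%, 6.32 to 54.7%) and 1 of 8 hepatocyte genes (12.5%, 2.24 to 47.1%). The last interval includes the background, and that of the blood cell genes begins just above it. The neuronal ones were Slc32a1, the vesicular transporter of GABA, in a domain of 65809 bp, the splicing factor gene Rbfox3 in 59309 bp, and Gad1 and Gad2, which make GABA from glutamate, in 29549 and 13002 bp. The muscle genes were Myod1 (14413 bp), Ckm (11263 bp) and Myh3 (10250 bp), and the epithelial ones Grhl2, Krt14 and Esrp1. Among blood cell genes, Cd3e of T lymphocytes lay in a domain of 19231 bp, and the hepatocyte gene was Hnf4a.

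Developmental transcription factor genes often started in domains. Over 9 such lists together, 154 of 343 genes had a TSS in a domain (44.9%, 39.7 to 50.2%), against 1022 of the 20464 protein-coding genes outside them (4.99%). Of the other listed genes, 67 had a TSS only in a narrower site and 122 in none. The share of domains that held a TSS of a listed transcription factor gene was 3.42% at 10 to 20 kb, 12.2% at 20 to 50 kb and 29.2% at 50 kb or more. Among the domains that held any protein-coding TSS, the same shares were 8.00%, 19.6% and 31.1%. Wider domains also held more protein-coding genes of any kind, on average 0.464, 0.756 and 1.54 per domain in these classes, and a domain holds a listed gene more often by its width alone.

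Homeobox genes encode transcription factors that assign position and cell fate. Of 193 of them, 102 had a TSS in a domain (52.8%, 45.8 to 59.8%). The 39 Hox genes, which pattern the body axis, split by cluster. All 9 Hoxc genes and 8 Hoxb genes lay wholly inside 1 domain each, of 228257 and 98321 bp. Hoxb13 lay in a domain of 77385 bp, Hoxb9 in one of 10762 bp, and Hoxd1 and Hoxd3 shared one of 42865 bp. None of the 11 Hoxa genes had a TSS in a domain or a narrower site, and neither did Hoxd4 or Hoxd9 to Hoxd13. Outside the Hox clusters, 81 of 154 homeobox genes had a TSS in a domain, in the widest case Lmx1b (95936 bp), a regulator of dorsal limb and midbrain, then En2 (86136 bp) of the midbrain-hindbrain boundary, Vax2 (85516 bp) of the ventral retina and Tlx1 (78083 bp), required for the spleen.

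Of the other transcription factor families, Pax genes had 7 of 9 members with a TSS in a domain (77.8%, 45.3 to 93.7%). Pax2, a regulator of kidney and eye, lay in a domain of 114741 bp, Pax7 in one of 56504 bp, Pax6 in one of 37623 bp and Pax5, which commits B cells, in one of 33418 bp. Of the tissue-specific bHLH genes, 17 of 47 were in domains (36.2%), and all 17 lay wholly inside. The widest of these domains held Olig2 of oligodendrocytes and motor neurons (41388 bp), Hand2 of heart and limb (37677 bp), Neurod2 (33658 bp) and Bhlhe23 (33465 bp). Forkhead genes had 11 of 41 members in domains, led by Foxf1 of the lung and gut mesenchyme (63228 bp) with Foxi3, Foxn4 and Foxa2 next. Of GATA genes 3 of 5 were in domains, which were Gata4 (28921 bp), Gata5 (24980 bp) and Gata3 (14036 bp). Of the 18 Sox genes 4 were in domains (22.2%), namely Sox14, Sox2, Sox10 and Sox1. Of the 16 T-box genes 4 were in domains (25%), namely Tbx5, Tbx1, T and Tbx20. The Sox and T-box lists had 7 and 6 further members with a TSS only in narrower sites. Their intervals ended at 45.2% and 49.5% and overlapped those of the forkhead, bHLH and GATA lists, so these shares are not ranked. Of the 14 Zic, Sall and Gli genes 6 were in domains, with Sall3, Sall4, Zic2 and Zic4 in the widest.

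The genes of these lists were covered to a larger extent than other genes with a TSS in a domain. Of the 154 genes, 103 (66.9%, 59.1 to 73.8%) lay wholly inside a domain, against 299 of 1022 other genes (29.3%, 26.5 to 32.1%). Gene length differed as well, with medians of 5.91 kb and 21.9 kb. Among genes shorter than 10 kb the shares were closer to each other, at 88.2% (90 of 102) and 78.5% (230 of 293).

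Signalling genes were split by family. Of 19 Wnt ligands, 9 had a TSS in a domain (47.4%, 27.3 to 68.3%) and 6 more in a narrower site. Wnt3a of the embryonic tail bud lay in a domain of 61757 bp, followed by Wnt7a (50566 bp), Wnt9b (29491 bp) and Wnt8b (27849 bp). The secreted Wnt antagonists had 5 of 15 members in domains, with Sost, the bone-formation inhibitor sclerostin, in 37966 bp and Sfrp1, Draxin and Wif1 in the next. Of 11 Notch ligands and receptors 4 were in domains, and all of these encode ligands (Jag2, Dll3, Dll1 and Dll4). Of 10 Hedgehog ligands and receptors, the ligands Ihh (99506 bp) and Shh (21443 bp) were in domains. Fgf3 and Fgf4 shared 1 domain of 60096 bp and Fgf15 lay in one of 11633 bp, and the other 17 of 20 FGF ligands were not in domains although 11 had a TSS in a narrower site. The TGF-beta family list had 5 of 41 members in domains (12.2%, 5.32 to 25.5%), with Chrdl2, Gdf10, Bmp7 and Nog in the widest.

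The channel, receptor and axon guidance lists had shares from 16.7% to 44.0%. Of 91 potassium channel genes, 40 had a TSS in a domain (44.0%, 34.2 to 54.2%) and 34 only in a narrower site, leaving 17 with none. The widest domains of this list held Kcnip3 (59649 bp), a calcium-binding partner of potassium channels, Kcnt1 (52020 bp), Kcna5 (45108 bp) and Kcnj12 (41990 bp). Of these 40 genes, which had a median length of 32.6 kb, 8 lay wholly inside a domain. Of calcium and sodium channel genes 14 of 39 were in domains (35.9%), with the calcium channel subunit gene Cacna2d2 in 147497 bp and the sodium channel beta subunit genes Scn2b and Scn4b sharing 79232 bp. Monoamine and acetylcholine receptor genes had 16 of 52 members in domains (30.8%), led by the adrenergic receptor gene Adra2b (36835 bp), the histamine receptor gene Hrh1 (30035 bp) and the nicotinic receptor gene Chrna4 (25865 bp). Glutamate and GABA receptor genes had 9 of 43 (20.9%), among them Gabrd, Grin1 and Gabbr2, and 30 more with a TSS only in a narrower site. Of 66 axon guidance genes 11 were in domains (16.7%), with Epha8 (54070 bp), Unc5a (32879 bp) and Epha10 (32397 bp) in the widest.

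Structural and receptor families ranged from above to below the 5.65% of all protein-coding genes. Keratin genes had 8 of 49 members in domains (16.3%, 8.51 to 29.0%), with Krt1 and Krt77 sharing a domain of 37651 bp, and cadherin genes 4 of 23 (17.4%, 6.98 to 37.1%), with Cdh22 in 55254 bp. Collagen genes had 4 of 42 members in domains (9.52%, 3.77 to 22.1%), which were Col26a1, Col13a1, Col2a1 of cartilage and Col15a1, and keratin-associated protein genes 3 of 56 (5.36%). Olfactory receptor genes had 14 of 1087 (1.29%, 0.769 to 2.15%), and 3 of these, Olfr1410, Olfr1411 and Olfr1412, shared 1 domain of 30175 bp. Genes with a numbered Zfp symbol had 5 of 358 (1.40%), with the widest domains at Zfp683 (31037 bp), Zfp423 (26040 bp), Zfp536 (19367 bp) and Zfp663 (11446 bp), and replication-dependent histone genes 1 of 67, Hist3h2ba. No TSS in a domain was found for 326 vomeronasal receptor genes, 81 ribosomal protein genes, 57 clustered protocadherin genes, 37 chemokine genes, 7 CDK inhibitor genes and 7 genes that the study examined by name. Of the last 2 lists Cdkn1c and Zfp503 had a TSS in a narrower site. The intervals of the vomeronasal and ribosomal lists ended at 1.16% and 4.53%, below the background. Those of the protocadherin (to 6.31%), chemokine (to 9.41%), CDK inhibitor and study lists (both to 35.4%) include it. The interval of the histone genes (0.264 to 7.98%) does so as well.

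By width, the 20 domains ranked 11 to 30 spanned 58861 to 85516 bp. Each held a protein-coding TSS and at least 1 CpG island, and 7 held a gene of the transcription factor lists. The domain chr6:83651956-83737471 held Vax2 together with Clec4f and Cd207, which encode lectins of liver macrophages and of Langerhans cells. The domain chr9:45077586-45156817 held Scn2b, Scn4b and Jaml, a leukocyte adhesion molecule. Tlx1 at chr19:45096355-45174437 and Hoxb13 at chr11:96144537-96221921 were the only protein-coding genes with a start in theirs. Cux2, a homeobox gene of upper cortical layers, had 74800 bp at chr5:121894111-121968910, and Irf8, a transcription factor of macrophages and dendritic cells, had 71672 bp at chr8:120724694-120796365. The gene 1700025C18Rik followed with 68821 bp, then Slc32a1, and Xkr7 with Ccm2l in 63822 bp. Foxf1 at chr8:121029550-121092777 and Barx1, a homeobox gene of the stomach, at chr13:48651162-48713981 (62820 bp) preceded Wnt3a. The rest held Grip2, which binds glutamate receptors (60527 bp), Fgf3 with Fgf4, the corticotropin-releasing hormone receptor gene Crhr1 (59756 bp), Kcnip3 with Prom2, Dpysl5 of neuronal growth cones (59391 bp), Rbfox3, Hmx1 of the eye and ear (59068 bp) and Ppp2r2c, a subunit of protein phosphatase 2A (58861 bp).

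The domains that held the most protein-coding genes were those of Hoxc with 9 and of Hoxb with 8. The next, chr1:74865068-74964573, held 4 genes, namely Fev, a transcription factor of serotonin neurons, Cryba2, Cfap65 and Ihh, and it also held the miRNA gene Mir375. The Vax2 and Jaml domains described above held 3 genes each. In all, 53 domains held a start of a miRNA gene, among them Mir196a-2 and Mir615 in the Hoxc domain, Mir10a in the Hoxb domain and Mir9-3 in the domain of Rhcg. These domains and the following one were picked after their values were seen. The widest domain whose starts were all from non-coding genes, chr2:180350362-180407967 (57606 bp), held Mir133a-2 and Mir1a-1, which are muscle miRNAs.

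CpG islands were called from the repeat-masked sequence. An island lay in 894 domains (38.0%, 36.1 to 40.02%), and 1473 of the 16471 islands on chromosomes 1 to 19 touched a domain (8.94%). As with starts, wide sites hold islands more often by width. Per base, islands made up 2.63% of the domains, 1.37% of the narrower sites and 0.464% of the known bases. Within the domains this share moved little with width, at 2.53%, 2.73% and 2.80% for domains of 10 to 20 kb, 20 to 50 kb and 50 kb or more, while sites of 5 to 10 kb had 2.14% and sites under 1 kb 0.426%. The median GC content of a domain was 49.0% (quartiles 47.1 and 50.9%), against 47.8% for narrower sites and 41.4% for 10 kb tiles of the chromosomes. Repeats made up 19.8% of the domain bases, 20.4% of those of narrower sites and 33.5% of the tiles.

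**Figure D2:**
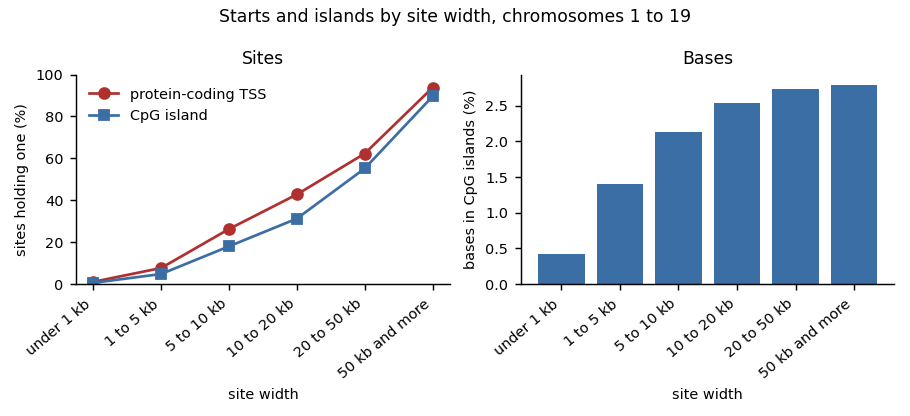
Sites of chromosomes 1 to 19 by width class (horizontal axis). The left panel gives the share of sites that hold a protein-coding TSS (circles, 42.8% at 10 to 20 kb and 93.8% at 50 kb or more) or a CpG island (squares, 31.3% and 89.6%), which rise with width by construction, and the right panel gives the share of bases in CpG islands, which differs little between the 3 widest classes.

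Islands and gene starts coincided in part. Of the 2350 domains, 767 held both an island and a protein-coding TSS, 370 held a TSS and no island, 127 held an island only and 1086 held neither. Counted by genes again, 807 of 12561 protein-coding genes with an island within 1 kb of a TSS had a TSS in a domain (6.42%, 6.01 to 6.87%), and 369 of 8246 genes without one did (4.47%, 4.05 to 4.94%). In the transcription factor lists the same shares were 142 of 294 (48.3%, 42.6 to 54.0%) and 12 of 49 (24.5%, 14.6 to 38.1%). Outside these lists they were 5.42% and 4.36%. The widest domain with a protein-coding TSS but no island, singled out after its values were seen, was chr7:48946628-49005443 (58816 bp), at an internal start of Nav2, a gene of neuronal outgrowth.

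Around the starts of the listed transcription factor genes, domains formed a broad shoulder on both sides. Over these genes, 43.3% of the bases in the first kilobase downstream of the 5′ end were inside a domain, 14.9% of those 29 to 30 kb upstream and 16.5% of those 29 to 30 kb downstream. For other genes the values were lower and changed less in percentage points. With an island at the start, 4.80% of the first kilobase was inside a domain, 3.87% of the bases 29 to 30 kb upstream and 3.21% of those 29 to 30 kb downstream, and without one 3.75%, 2.62% and 3.01%. Over all bins the values ran from 2.80% to 4.91% with an island and from 2.32% to 3.85% without. Each gene was counted separately, so a domain shared by several listed genes, as at Hoxc and Hoxb, entered more than once.

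**Figure D3:**
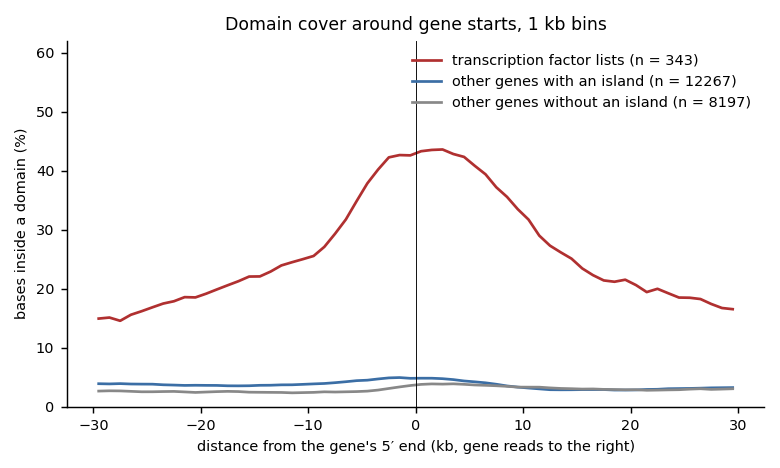
Share of bases inside a domain (%, vertical axis) in 1 kb bins from 30 kb upstream to 30 kb downstream of the 5′ end of protein-coding genes. The line of the 343 genes of the transcription factor lists peaks above 40% near the start and stays above 14% at both ends, while the other 12267 genes with an island and 8197 without stay under 5%. Genes that share a domain are counted separately.

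For the 777 domains that held the 5′ end of 1 protein-coding gene and no other, its place could be measured. The domain reached farther downstream than upstream in 502 cases and farther upstream in 274. The median reach was 6.13 kb upstream (quartiles 3.41 and 10.3 kb) and 9.33 kb downstream (6.38 and 13.8 kb), so that the start lay at a median of 38.4% of the width from the upstream edge. Gene starts at an edge were rare. In 33 domains (4.25%, 3.04 to 5.90%) the start was within 1 kb of an edge, which was the upstream edge in 28 of them. The domain ran past the gene's 3′ end in 254 cases (32.7%, 29.5 to 36.1%). With an island at the start (540 domains) the median reach was 6.88 kb upstream and 9.53 kb downstream, and without one (237 domains) 4.58 and 8.92 kb. Of the 28 domains with the upstream edge near the start, 20 had no island there.

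**Figure D4:**
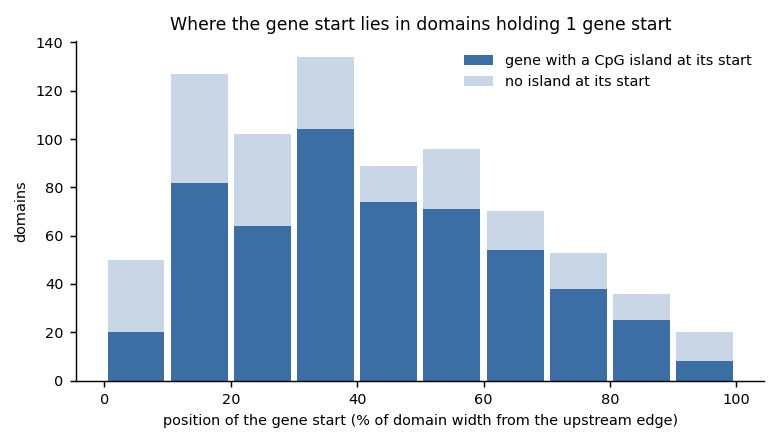
Position of the gene start in the 777 domains that hold 1 protein-coding 5′ end, as a percentage of the width from the upstream edge (horizontal axis), with the number of domains on the vertical axis. Dark bars are genes with a CpG island at the start and light bars genes without, and 134 domains, the tallest bar, have the start at 30 to 40% of the width.

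Of the 966 domains with no gene start, 352 lay wholly within bodies of protein-coding genes, 520 wholly outside and 94 partly, while such bodies make up 41.4% of all known bases. The median distance to the nearest protein-coding TSS was 20.5 kb (quartiles 7.69 and 49.8 kb), with 158 domains within 5 kb and 106 beyond 100 kb. They had a median width of 12938 bp against 15637 bp for domains with a protein-coding TSS, a median GC content of 48.1% against 49.8%, and a CpG island in 83 cases (8.59%, 6.98 to 10.5%). Another domain lay within 50 kb of 75.9% of them, and of 64.1% of those with a protein-coding TSS. The widest was chr7:49674772-49727232 (52461 bp), 31883 bp from Htatip2. Other wide ones were chr5:33476752-33523598 (46847 bp), 42776 bp from the homeobox gene Nkx1-1, chr5:35299071-35342500 (43430 bp), 20752 bp from the adrenergic receptor gene Adra2c, and chr2:29255785-29298284 (42500 bp), 2780 bp from Ntng2, which encodes a netrin-related axon guidance protein.

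Domains clustered. The median gap to the nearest other domain was 13.9 kb (quartiles 2.24 and 77.2 kb), and 70.6% of the domains (68.7 to 72.4%) had another within 50 kb. Joining domains less than 50 kb apart gave 1200 clusters, of which 692 were single domains, 253 held 2 and 255 held 3 or more, with 1152 domains in the last kind. A TSS of the transcription factor lists lay in 46 of the clusters of 3 or more (18.04%) and in 54 of the single domains (7.80%), but a cluster holds one more often by its number of domains. Counted per domain, 55 of the 1152 domains in clusters of 3 or more held such a TSS (4.77%, 3.69 to 6.16%), and the share of the single domains had an interval of 6.03 to 10.04%. Of 2403 windows of 1 Mb, 1698 (70.7%) held no domain, while 165 windows with 5 or more held 1265 of the domains.

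The cluster with the most covered bases was that of Hoxc, chr15:102684720-103182244, with 8 domains and 384981 bp covered, 77.4% of its span. It reached Smug1, a DNA repair gene. The next, chr5:35052536-35533342, held 19 domains, the highest number of any cluster, over 352987 bp, with starts of Dok7, which acts at the neuromuscular junction, Adra2c, Hmx1 and Cpz. The cluster chr12:112114003-112542365 held 15 domains (294279 bp) and protein-coding starts of Aspg and Kif26a. At chr19:44583316-44875814, 9 domains (262489 bp, 89.7% of the span) held 1 protein-coding gene with a start, Pax2, and at chr4:44413016-44754155, 15 domains (257559 bp, 75.5%) held Pax5. The last 2 are thus long stretches of marked chromatin with a start of 1 protein-coding gene.

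**Figure D5:**
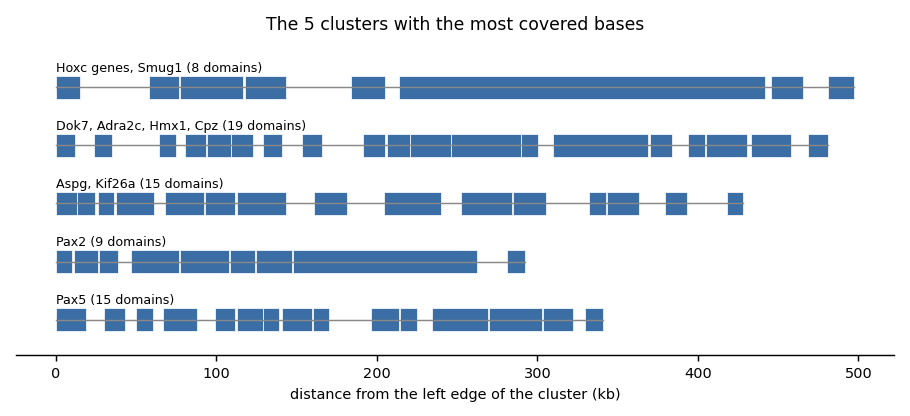
The 5 clusters with the most covered bases, each drawn from its left edge (horizontal axis in kb) with domains as boxes and the protein-coding genes that have a start in a domain named above. The Hoxc and Pax2 clusters hold 8 and 9 domains, among them the 2 widest drawn, of 228257 and 114741 bp, while the other 3 clusters are rows of 15 to 19 domains.

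The domains were embedded in further marked chromatin. The nearest site of any width lay a median of 373 bp away, and 96.5% of the domains had another site within 3 kb. Sites of any width covered 58.2% of the bases within 10 kb of a domain, 48.9% of those at 10 to 50 kb and 28.8% of those at 50 to 200 kb, against 6.99% of all known bases. The edges in the list are thus often short interruptions. When sites less than 3 kb apart were joined, the domains fell into 1522 blocks with a median width of 39298.5 bp and a median of 7 sites, 151 of them of 100 kb or more, and only 82 blocks consisted of 1 site. The widest block, chosen after its values were seen like the next, spanned 333154 bp at chr9:43333972-43667125 and held 45 sites but no protein-coding TSS in the block. In a block of 255568 bp at chr11:96144537-96400104 all 10 Hoxb genes came together, with 96.3% of its bases in sites.

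The 3674 gaps of less than 3 kb beside a domain had a median length of 472.5 bp. Repeats made up 38.4% of their bases, against 19.8% in the domains, and their GC content was 43.2% against 49.3%. The 10 kb tiles of the chromosomes had 33.5% repeats and 41.9% GC, so the gaps were closer to the tiles than the domains were. More than 50% of the known bases were repeats in 1182 of the gaps (32.2%). A protein-coding TSS lay in 48 gaps and a CpG island in 40. Per megabase of known sequence, protein-coding genes with a TSS numbered 18.5 in the gaps and 27.7 in the domains. Islands made up 0.537% of the gap bases, against 2.63% in the domains and 0.464% of all known bases. Reads align less surely in repeats, and the part of this in the edges was not tested.

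Along the genome, the domains numbered 0.981 per Mb of known sequence. Chromosome 11 had the most at 1.71 per Mb, with 3.36% of its bases covered, followed by chromosome 2 (1.65 per Mb), chromosome 7 (1.53 per Mb) and chromosome 4 (1.43 per Mb). Chromosome 3 had the fewest, 0.281 per Mb and 0.469% of its bases, and chromosome 16 had 0.410 per Mb. Chromosomes 11 and 3 also differed in gene density, with 13.8 and 6.42 protein-coding genes per Mb, and in islands, with 11.9 and 4.62 per Mb. The order by genes was not that by domains. Chromosome 12 had fewer genes than chromosome 3, 5.50 per Mb, but 0.830 domains per Mb. Chromosome 7 had the most genes, 14.3 per Mb, but fewer domains per Mb than chromosomes 11 and 2.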

How the data were processed

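H3K27me3 ChIP-seq sites of 8 H3K27me3 libraries and 4 inputs were taken from 1 pooled list. The values used are positions (chromosome, start and end) as deposited by the authors, who, per the methods and processing notes, aligned reads with BWA to mm10, filtered with SAMtools, merged replicates and called broad peaks with MACS2. Versions, cutoffs and the rule by which samples were joined are not given in the sources used here. A broad caller's joining gap and cutoff set widths. Starts were read as counted from 0, an inference from the values, and are printed from 1. No per-sample column was left unused (0 columns).

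Width was end minus start, with at least 10000 bp required. Domains were compared with GENCODE M21 and with GRCm38.p6 sequence using Python 3.11.15, numpy 2.4.6, pandas 2.3.3 and scipy 1.17.1. CpG islands were maximal segments scoring 17 per CpG and -1 per other base, at least 200 bp long, with at least 50% GC and an observed/expected CpG ratio of at least 0.6, in repeat-masked sequence. The island caller was tested on simulated data. Figures were drawn with matplotlib 3.10.9. Fix patches repeat 16.1 Mb of these chromosomes (matched with minimap2 2.31-r1302, 96 regions). There 199 protein-coding genes have every TSS, none of them in a domain, and no domain has a base there (0 bases). Of the listed genes, 1 forkhead, 1 Notch list, 3 calcium and sodium channel and 1 vomeronasal receptor gene are among these. Whether reads were aligned to patch sequences is not given, and an effect of this on the sites was not tested.

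The domains and the 40 gene lists were chosen with earlier results of these data known. For each list up to 4 members were named by domain width, as were the genes of the domains ranked 11 to 30, the 5 domains with most genes, the 5 widest without a start, the 5 largest clusters, and those next to the threshold. A few items that this rule picks are not reported here. Other names are said to be chosen after their values were seen. Nothing was tested, since the pooled list holds no value per library.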

Additional observations from a re-analysis of the deposited data

Results flagged for a closer look

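Outside the 19 chromosomes described, 33 sites of at least 10000 bp lay on chromosome X, a signal in data that the comparisons above do not use. This is 0.202 per Mb, fewer than the 0.281 per Mb of chromosome 3. Of these sites, 16 held a protein-coding TSS.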

How the results depend on the processing

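The values depended on the width threshold and on joining nearby sites. With at least 5000 bp there were 7036 domains, of which 33.7% held a protein-coding TSS and 24.7% an island, with 2270 genes, a median GC content of 48.2%, another domain within 50 kb for 82.9%, and 60.1% of homeobox genes. With at least 20000 bp the same values were 597, 64.8%, 58.0%, 457, 49.7%, 47.6% and 36.3%. After joining sites less than 1000 bp apart they were 4173, 45.0%, 31.4%, 2010, 47.1%, 73.6% and 57.5%, and after joining those less than 3000 bp apart 5522, 43.7%, 29.4%, 2834, 46.1%, 73.4% and 62.7%. Counting only gene 5′ ends lowered the share of domains with a protein-coding TSS to 38.4%, the count of genes to 1030 and the share of homeobox genes to 49.7%. A neighbour within 20 kb or 100 kb was found for 56.1% and 77.0%. By construction these settings change which sites, starts or gaps are counted. Adding chromosome X, allowing a TSS within 1 kb of a domain, and calling islands from unmasked sequence kept shares within their intervals and brought the count of genes to at most 1240. The depth behind a site is unknown. No paired analysis was possible because the pooled list carries no value per library, and for the same reason no replicate could be left out.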
